A study of Mus musculus with 14 samples.

Results

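The 10 genes described here are *Hif1a*, *Epas1*, *Egln1*, *Egln3*, *Vegfa*, *Adm*, *Bnip3*, *Ndrg1*, *Ankrd37* and *Car9*, a list of hypoxia genes chosen by name from the 55487 genes of a count table of mouse caudal discs. All 10 had counts, and 9 passed the filter on low counts that left 16915 genes for testing. *Ankrd37* did not pass it and is given by its values only. RNA was sequenced from intervertebral discs (IVDs) of the tail, with 5 discs pooled per mouse and 1 library per mouse, in 4 groups of male mice. The db/db mice (n = 3) carried the Lepr db mutation on both alleles and were 3 months old, and their controls were heterozygous db/+ littermates (n = 3), which carry 1 mutant allele. The STZ-HFD mice (n = 4) were C57BL/6J males that entered the study at 12 weeks of age, ate a high-fat diet for 4 to 6 weeks, received a single dose of 100 mg/kg streptozocin (STZ, a beta-cell toxin) and stayed on the diet for 12 weeks more. The Con+Veh mice (n = 4) were C57BL/6J males of the same age at entry on standard chow. They were injected with citrate buffer on the same schedule and kept for the same time. Each diabetic group was set against its own control, because age, diet and schedule differ between the cohorts. A db mutation changes the receptor transcript rather than removing it, so the total count of *Lepr* does not check those labels.

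In cells with enough oxygen, the prolyl hydroxylases encoded by *Egln1* and *Egln3* mark the hypoxia-inducible factor subunits HIF-1 alpha (*Hif1a*) and HIF-2 alpha (*Epas1*) for capture by the VHL ubiquitin ligase and for destruction. When oxygen falls the subunits persist, pair with ARNT, bind a short core sequence in promoters and enhancers, and raise the transcription of genes for vessel growth, glycolysis, mitochondrial removal and acid balance. The disc is an avascular tissue, and cells of its nucleus pulposus are known to hold HIF-1 alpha at oxygen levels at which other cells degrade it. Control of both subunits is mainly at the level of the protein, so RNA levels of *Hif1a* and *Epas1* do not measure HIF activity.

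The HIF core was searched for in the promoters of the 10 genes as the letters ACGTG and GCGTG on both strands, where CACGTG counts on each strand. RefSeq promoters of GRCm38.p6, which run from 250 bases before to 50 bases after the start of a transcript, were at hand for 8 of the 10 genes, and *Epas1* and *Ndrg1* had none in the table. Of the 9 promoters of these genes 8 had at least 1 match, against 43.8% of the 32851 promoters in the table. *Bnip3* had 5 matches, a number that 1.66% of all promoters reach or pass. *Ankrd37* had 4, *Hif1a* 3, *Egln1* and *Adm* 2 each, and *Egln3* and *Car9* 1 each. *Vegfa* had 0 in the promoter at the start of the gene. It had 2 in a second one, at chr17:46025114-46025413, which lies inside the gene (chr17:46016993-46032369, reverse strand) and is counted above. The promoters of *Hif1a* and *Ankrd37* also lie within the annotated spans of their genes. The 4 promoters printed here belong to *Egln1*, *Egln3*, *Bnip3* and *Car9*, genes picked because their levels moved together in these libraries. Capitals mark the matches on either strand. A match is a run of letters and not a measured site.

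Egln1 (chr8:124949205-124949504, reverse strand): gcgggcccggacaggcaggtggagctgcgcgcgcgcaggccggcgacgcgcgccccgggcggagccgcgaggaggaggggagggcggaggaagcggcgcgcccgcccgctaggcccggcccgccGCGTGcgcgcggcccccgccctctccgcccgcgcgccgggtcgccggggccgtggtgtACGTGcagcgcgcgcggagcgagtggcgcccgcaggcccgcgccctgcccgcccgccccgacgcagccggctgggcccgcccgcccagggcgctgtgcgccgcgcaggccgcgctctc
Egln3 (chr12:54203825-54204124, reverse strand): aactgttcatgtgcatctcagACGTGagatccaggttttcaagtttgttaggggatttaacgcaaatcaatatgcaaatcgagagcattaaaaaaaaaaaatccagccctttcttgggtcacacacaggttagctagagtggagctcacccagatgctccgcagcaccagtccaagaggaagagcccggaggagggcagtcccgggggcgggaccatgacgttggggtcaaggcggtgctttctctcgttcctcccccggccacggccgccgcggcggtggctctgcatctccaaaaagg
Bnip3 (chr7:138909457-138909756, reverse strand): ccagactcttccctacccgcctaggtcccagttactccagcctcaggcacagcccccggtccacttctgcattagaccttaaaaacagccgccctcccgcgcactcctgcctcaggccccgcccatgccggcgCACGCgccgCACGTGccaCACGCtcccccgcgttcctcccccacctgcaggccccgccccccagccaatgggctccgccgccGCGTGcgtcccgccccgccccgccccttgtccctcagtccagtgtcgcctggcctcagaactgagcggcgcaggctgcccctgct
Car9 (chr4:43506776-43507075, forward strand): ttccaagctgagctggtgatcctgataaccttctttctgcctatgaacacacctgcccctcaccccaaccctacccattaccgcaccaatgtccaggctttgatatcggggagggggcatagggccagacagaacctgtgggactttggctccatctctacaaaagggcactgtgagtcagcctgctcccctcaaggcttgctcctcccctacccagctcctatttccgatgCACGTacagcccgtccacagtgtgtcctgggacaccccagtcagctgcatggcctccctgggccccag

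Counted from the start, the matches of *Bnip3* begin at bases from -117 to -35 and those of *Egln1* at -126 and -68. The single match of *Car9* begins at -18, and that of *Egln3* at -229, near the upstream end of the window.

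Total counts ran from 16076908 to 58943169 per library, and ribosomal RNA genes took 28.1% to 60.2% of them. A level is given in CPM, the count of a gene relative to the library total scaled by its TMM factor. At these totals 3 counts equal 0.0431 to 0.163 CPM, which covers counting error only. The chi-square per degree of freedom of the 18 pairs of libraries within a group was 57.0 to 659, so none of these pairs was a repeat of 1 library, and pairs across groups were not compared. The fit weighted each library by its scatter, from 0.275 for Con+Veh replicate 1 to 3.05 for Con+Veh replicate 3. One name ending, which the labels do not explain, occurs in both Con+Veh replicate 2 and STZ-HFD replicate 4, and results without both are given where they differ. Discs were checked by markers fixed by cell type. Of 8 notochord and nucleus pulposus markers, 6 were detected in every library, including *T* at a mean of 34.4 to 168 CPM per group, while *Noto* had 0 counts in 11 of the 14 libraries and *Shh* in 8. All 8 cartilage and annulus markers were detected in every library. Skeletal muscle markers summed to 2284 to 17338 CPM, so muscle RNA was in every library.

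Compared per kilobase of exon, *Epas1* was the most abundant of the 10 genes. Averaged over the 4 groups it stood at 70.2 CPM per kilobase, above *Ndrg1* (24.6 CPM per kilobase) in 14 of 14 libraries. *Ndrg1*, *Vegfa* (19.8 CPM per kilobase) and *Hif1a* (17.4 CPM per kilobase) followed, and each of the 3 was above the next gene in only 9, 10 and 10 of 14 libraries, so their order does not hold beyond the spread. *Egln3* (12.1 CPM per kilobase) and *Egln1* (10.1 CPM per kilobase) came next, with *Egln3* above *Egln1* in 11 of 14 libraries. *Bnip3* (4.99 CPM per kilobase), *Adm* (3.71 CPM per kilobase), *Car9* (1.34 CPM per kilobase) and *Ankrd37* (0.293 CPM per kilobase) were the lowest. *Car9* was above *Ankrd37* in 13 of 14 libraries, the exception being Con+Veh replicate 4 (0.613 against 0.635 CPM per kilobase).

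**Figure D1:**
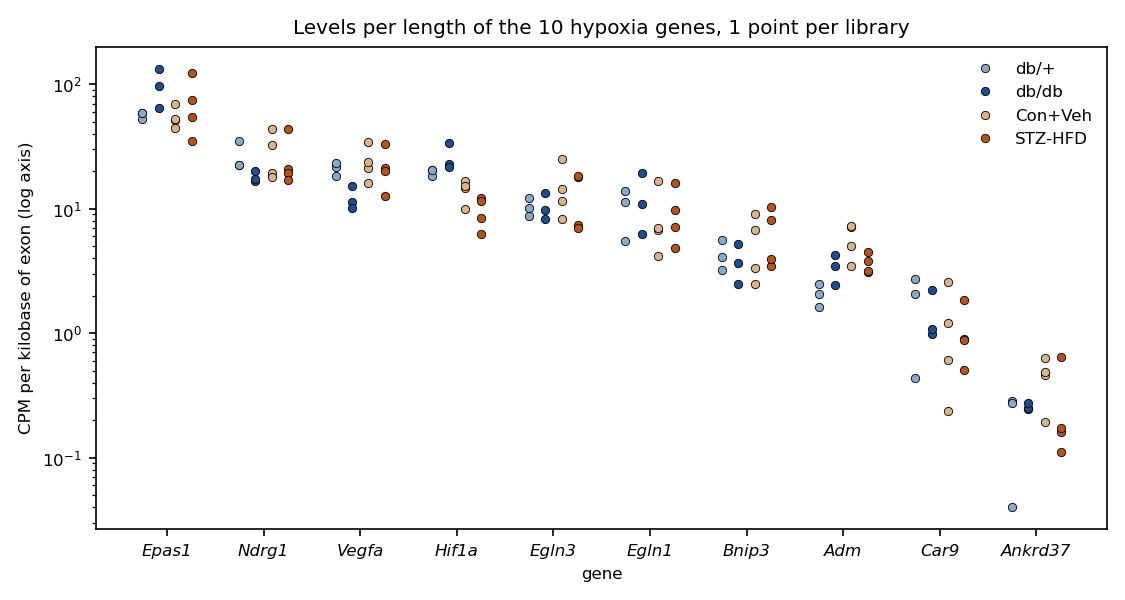
Level of each of the 10 genes per kilobase of exon in each of the 14 libraries, on a log axis in CPM per kilobase, with genes ordered by the mean of the group means and points coloured by group. *Epas1* is the highest of the 10 genes in each library, and the points of *Ankrd37* lie between 0.0400 and 0.641 CPM per kilobase.

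None of the 9 tested genes passed the test in either model. Calls required an adjusted p under 0.05 in limma's voomWithQualityWeights fit, with Benjamini-Hochberg adjustment over all 16915 genes, and a log2 fold change beyond 1 in size. By this rule 0 of 9 were called in db/db against db/+, where 1.66% of all genes tested were called, and 0 of 9 in STZ-HFD against Con+Veh, where 2.61% were called. At these rates a count of 0 in 9 genes does not set the list apart from other genes. The difference between the 2 responses was called for 0 of 9, where 1.77% of all genes were called (0.816% higher and 0.952% lower). Without the minimum fold change the members' counts were still 0, where 1.93%, 3.45% and 1.77% of all genes passed in db/db, in STZ-HFD and for the difference. At an unadjusted p under 0.05, 2 of 9 passed in each model and 3 of 9 for the difference, against 21.1%, 17.9% and 17.3% of all genes. edgeR's quasi-likelihood test and DESeq2 also called 0 of 9 in each model. Over all 16915 genes edgeR's test called 0 in db/db and 6 higher and 23 lower in STZ-HFD. Its 0 of 9 therefore does not describe the list. DESeq2 called 158 higher and 53 lower in db/db and 122 and 150 in STZ-HFD. The median log2 fold change of the 9 genes was -0.01 in db/db and 0.07 in STZ-HFD, beside medians of -0.04 and -0.04 over all genes tested. Values above 0 were found for 4 of 9 genes in db/db, 6 of 9 in STZ-HFD and 4 of 9 for the difference, where 47.3%, 47.2% and 51.5% of all genes had them. No member reached 1 in size in db/db or STZ-HFD, where 11.5% and 12.7% of all genes did, and for the difference only *Adm* did, where 22.5% did. Libraries of db/db and db/+ did not overlap for 4 of the 9 genes, 2 higher and 2 lower, where this held for 25.8% of all genes (14.1% higher, 11.7% lower). In STZ-HFD against Con+Veh they overlapped for all 9, where 4.74% of all genes did not overlap (1.97% higher, 2.77% lower). The replicates are separate mice, and discs are whole-tissue samples, in which fewer cells of a type and less RNA per cell cannot be told apart.

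**Figure D2:**
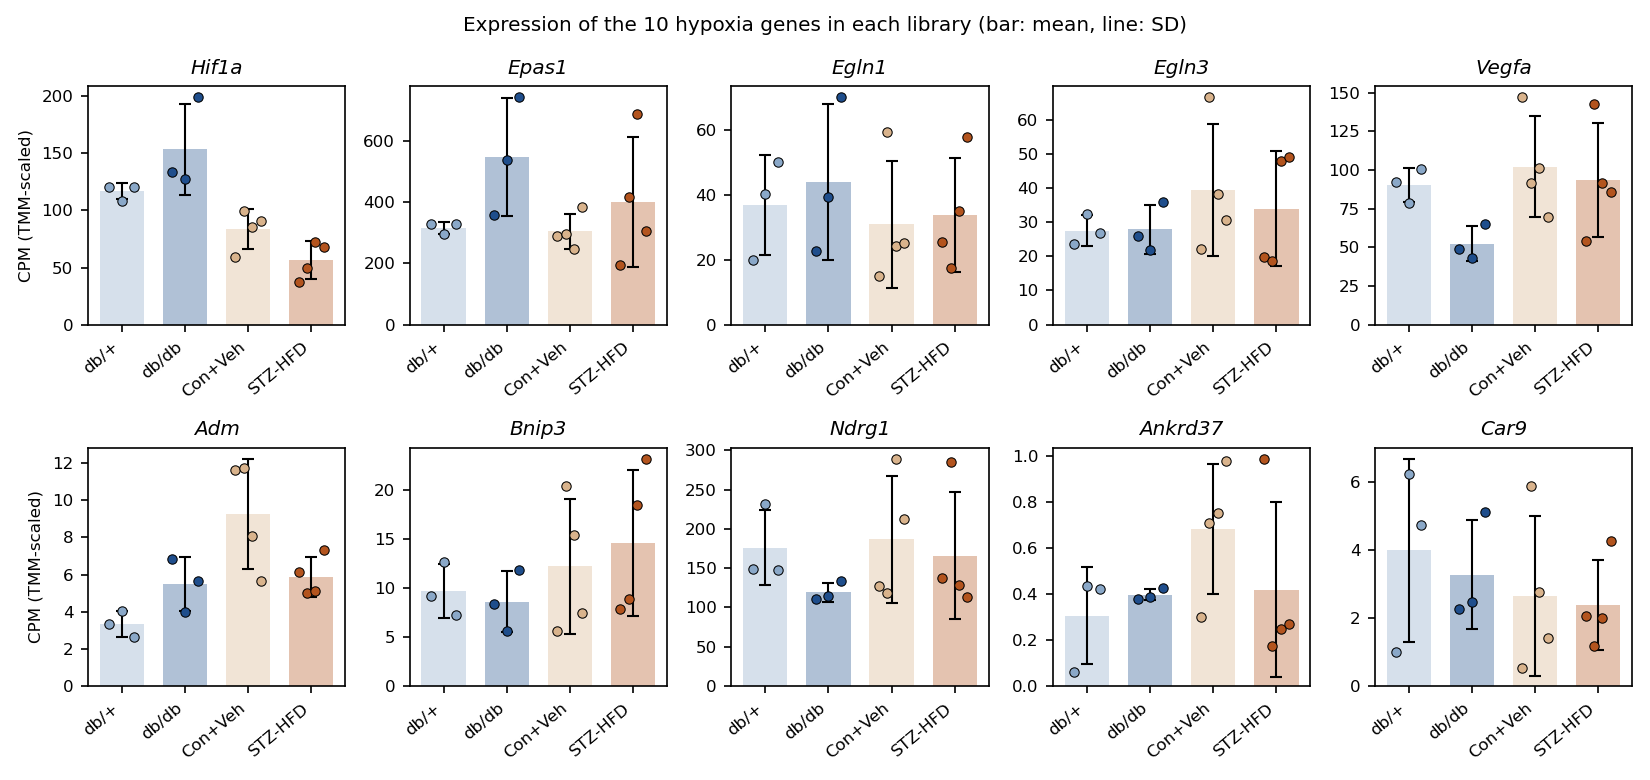
Level of each of the 10 genes in CPM scaled by TMM factors, with 1 point per mouse, bars for the group means and lines for the SD (n = 3 in db/+ and db/db, n = 4 in Con+Veh and STZ-HFD). *Hif1a* and *Epas1* are higher in every db/db library than in every db/+ library, *Vegfa* and *Ndrg1* are lower, and the STZ-HFD and Con+Veh points overlap in all 10 panels.

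**Figure D3:**
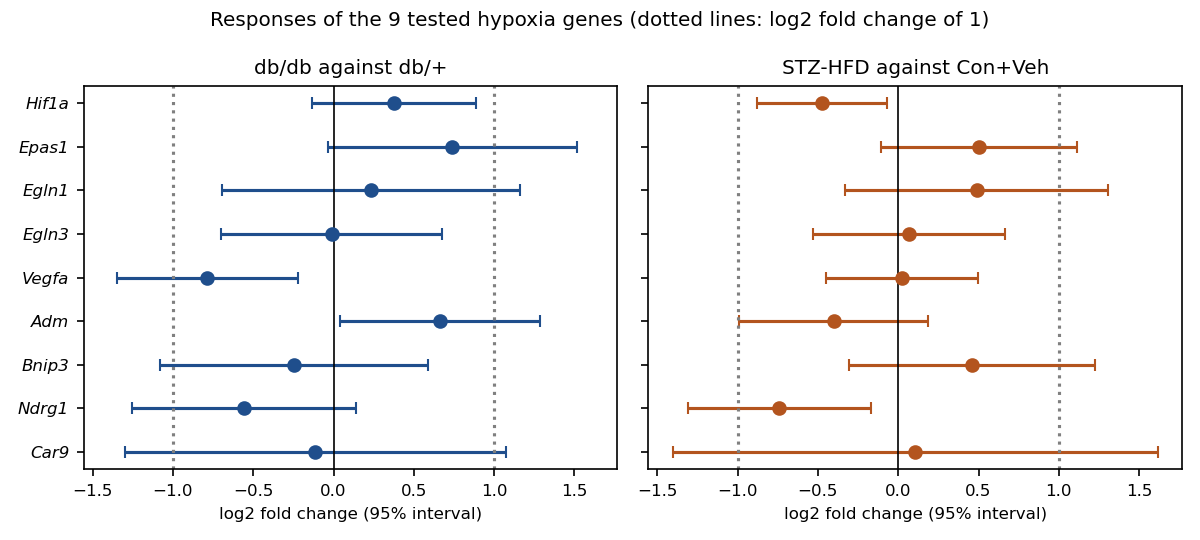
Log2 fold change of the 9 tested genes in db/db against db/+ and in STZ-HFD against Con+Veh, with 95% intervals from limma and dotted lines at the minimum of 1. The interval excludes 0 for *Vegfa* and *Adm* in db/db and for *Hif1a* and *Ndrg1* in STZ-HFD, before adjustment for the 16915 genes.

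The oxygen-regulated subunit gene *Hif1a* (ENSMUSG00000021109, chr12:73901375-73947530 of GRCm38, forward strand) leaned in opposite directions in the 2 models. Its level was 121, 109 and 120 CPM in the db/+ libraries and 134, 127 and 199 CPM in the db/db libraries. The db/db libraries were all above the db/+ libraries, by a wide margin only in db/db replicate 3. The level was 58.9, 99.3, 85.7 and 90.4 CPM in Con+Veh and 37.0, 49.7, 72.4 and 68.1 CPM in STZ-HFD. There the 2 lowest libraries were STZ-HFD, and Con+Veh replicate 1 lay among the STZ-HFD values. The fitted log2 fold change was 0.38 (standard error, SE, 0.24, adjusted p = 0.385, limma) in db/db and -0.47 (SE 0.19, unadjusted p = 0.0249, adjusted p = 0.197, limma) in STZ-HFD. The difference between these responses was 0.85 on the log2 scale (95% interval 0.20 to 1.501), with an unadjusted p of 0.0136 and an adjusted p of 0.162 in the limma fit. In db/db the value fell to 0.17 without db/db replicate 3, and to -0.03 once the trend of expression with GC content was removed from each library, *Hif1a* having a low GC content of 41.0%. The difference between the responses was 0.43 (adjusted p = 0.598, limma) with that trend removed. In STZ-HFD the fold change stayed between -0.64 and -0.38 over the 14 fits that each left out 1 library. All 6 libraries of the db cohort were above all 8 libraries of the other cohort in *Hif1a*. Between the cohorts the summed cartilage markers also did not overlap (7106 to 24693 CPM against 837 to 5516 CPM), and age, diet and cohort cannot be told apart from either difference.

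Estimated transcript counts described the same gene at a lower depth. The 5 annotated transcripts of *Hif1a* all had a line in the Salmon table, and their total was 29.2% to 42.5% of the gene count. *Hif1a-201*, a coding transcript that starts at base 73907904 of chromosome 12, took 76.8% to 83.9% of the estimated *Hif1a* counts in the db/+ libraries and 77.3% to 83.9% in the db/db libraries. In Con+Veh its share was 95.5%, 83.2%, 74.8% and 73.5%. In STZ-HFD its share was 39.0%, 38.8% and 34.7% in replicates 1 to 3 and 90.7% in replicate 4. *Hif1a-202*, which starts upstream at base 73901375, took 35.9%, 31.3% and 52.4% of the estimate in those 3 STZ-HFD libraries and 2.89% in replicate 4. The Con+Veh libraries gave it at most 13.0%. STZ-HFD libraries held 350 to 951 estimated *Hif1a* counts, so these shares rest on few reads divided between transcripts that share most of their exons, and no test was made of them.

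*Epas1* (ENSMUSG00000024140, chr17:86753700-86833410, forward strand), which encodes HIF-2 alpha and is strongly expressed in endothelium, was at 327, 294 and 329 CPM in db/+ and at 358, 539 and 742 CPM in db/db. The groups did not overlap, and the db/db libraries differed among themselves by 2.07-fold while the db/+ libraries differed by 1.12-fold. It was at 288, 295, 248 and 385 CPM in Con+Veh and at 195, 416, 689 and 305 CPM in STZ-HFD. STZ-HFD held both the lowest and the highest of those libraries. The log2 fold change was 0.74 (SE 0.37, unadjusted p = 0.0607, adjusted p = 0.259, limma) in db/db and 0.50 (SE 0.29, adjusted p = 0.383, limma) in STZ-HFD. Without db/db replicate 3 the value in db/db fell to 0.48, and without STZ-HFD replicate 3 the value in STZ-HFD fell to 0.08. The 8 endothelial markers summed to 229 to 264 CPM in db/db and 155 to 224 CPM in db/+, also without overlap (209 to 246 CPM and 144 to 205 CPM without *Kdr*), and 0 of the 8 were called in either model. Their median log2 fold change in db/db was 0.09. Means in db/+ and db/db were 68.2 and 96.9 CPM for *Pecam1*, 13.3 and 23.7 CPM for *Emcn* and 14.6 and 20.0 CPM for *Kdr*. They were 65.9 and 68.2 CPM for *Cdh5*, 13.5 and 13.5 CPM for *Tie1* and 5.69 and 6.13 CPM for *Esam*. *Egfl7* (13.5 and 10.1 CPM) and *Cldn5* (4.08 and 3.32 CPM) were lower in db/db. The part of these markers in the level of *Epas1* was not tested.

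The ratio of *Epas1* to *Hif1a* per kilobase set the 2 subunits side by side within a library. It was 2.86 ± 0.0132 (SD, n = 3) in db/+ and 3.74 ± 0.841 (SD, n = 3) in db/db, where replicate 1 (2.82) was below every db/+ library. It was 3.96 ± 1.04 (SD, n = 4) in Con+Veh and 7.29 ± 2.55 (SD, n = 4) in STZ-HFD. The STZ-HFD libraries ran from 4.72 to 10.04 and the Con+Veh libraries from 3.05 to 5.16, so the groups overlapped at their ends. These ratios are a description, since the pattern was seen before any test could be set.

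The prolyl hydroxylase gene *Egln1* (ENSMUSG00000031987, chr8:124908587-124949324, reverse strand), the main oxygen sensor of the family, varied more within the groups than between them. It was at 19.9, 40.3 and 50.2 CPM in db/+ and at 22.6, 39.5 and 70.2 CPM in db/db. It was at 14.9, 59.5, 24.3 and 25.0 CPM in Con+Veh and at 25.4, 17.3, 34.9 and 57.9 CPM in STZ-HFD. The highest library of a group was 2.53 to 4.00 times the lowest in all 4 groups. In the fit the log2 fold change was 0.24 (95% interval -0.69 to 1.16, adjusted p = 0.799, limma) in db/db and 0.49 (95% interval -0.33 to 1.31, adjusted p = 0.557, limma) in STZ-HFD, intervals that include both no change and a doubling. Without the libraries that share a name ending the value in STZ-HFD was 0.13.

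*Egln3* (ENSMUSG00000035105, chr12:54178981-54203860, reverse strand) encodes a hydroxylase of the same family that is itself a HIF target. It was at 23.4, 32.2 and 26.9 CPM in db/+ and at 26.0, 21.9 and 35.8 CPM in db/db. It was at 22.0, 66.5, 38.3 and 30.7 CPM in Con+Veh and at 19.8, 18.7, 48.0 and 48.9 CPM in STZ-HFD. Both comparisons overlapped widely, and STZ-HFD fell into 2 low and 2 high libraries. Its log2 fold change was -0.01 (95% interval -0.70 to 0.68, adjusted p = 0.988, limma) in db/db and 0.07 (95% interval -0.53 to 0.67, adjusted p = 0.934, limma) in STZ-HFD. These intervals leave out changes of 2-fold or more in either model, and the sign of both values turned with the settings.

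*Vegfa* (ENSMUSG00000023951, chr17:46016993-46032369, reverse strand), the main growth factor for blood vessels and a HIF target, gave the lowest p of the list. Its level was 92.4, 78.5 and 100.5 CPM in db/+ and 48.7, 43.2 and 65.2 CPM in db/db. Every db/db library was below every db/+ library. The level was 147, 91.5, 101.05 and 69.4 CPM in Con+Veh and 53.8, 143, 91.5 and 86.1 CPM in STZ-HFD, ranges that overlapped almost entirely. The fitted log2 fold change was -0.79 (SE 0.27, unadjusted p = 0.00911, adjusted p = 0.115, limma) in db/db, a ratio of 0.580 with a 95% interval of 0.392 to 0.857. In STZ-HFD the log2 fold change was 0.02 (SE 0.22, adjusted p = 0.976, limma). Its interval of -0.45 to 0.49 overlaps the interval of -1.35 to -0.22 in db/db. The difference between the models was -0.81 (95% interval -1.55 to -0.07), with an unadjusted p of 0.0332 and an adjusted p of 0.237 in the same limma fit. The value in db/db stayed between -0.96 and -0.66 over the 14 fits without 1 library, and it was -0.47 with the GC trend removed.

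*Adm* (ENSMUSG00000030790, chr7:110627661-110629820, forward strand) encodes adrenomedullin, a peptide that widens vessels and that HIF induces. It was at 3.36, 4.05 and 2.64 CPM in db/+ and at 6.84, 3.96 and 5.66 CPM in db/db, where only db/db replicate 2 lay below a db/+ library. It was at 11.6, 11.7, 8.08 and 5.65 CPM in Con+Veh and at 6.13, 5.02, 5.09 and 7.31 CPM in STZ-HFD. Of the Con+Veh libraries 3 were above every STZ-HFD library. The log2 fold change was 0.66 (SE 0.30, unadjusted p = 0.0391, adjusted p = 0.213, limma) in db/db and -0.40 (SE 0.28, adjusted p = 0.494, limma) in STZ-HFD. The responses differed by 1.06 on the log2 scale (95% interval 0.20 to 1.92, unadjusted p = 0.0182, adjusted p = 0.184, limma). *Adm* and *Vegfa*, both secreted vascular factors of the list, thus stood on opposite sides of 0 in db/db, at 0.66 and -0.79. The level of *Adm* rests on 104 to 565 counts per library.

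*Bnip3* (ENSMUSG00000078566, chr7:138890836-138909519, reverse strand), which encodes a receptor for the removal of mitochondria, was at 9.21, 12.7 and 7.29 CPM in db/+ and at 8.37, 5.61 and 11.9 CPM in db/db. It was at 5.60, 20.4, 15.4 and 7.496 CPM in Con+Veh and at 7.89, 8.94, 18.5 and 23.2 CPM in STZ-HFD. Low and high libraries stood in every group. In the fit the log2 fold change was -0.25 (95% interval -1.08 to 0.59, adjusted p = 0.765, limma) in db/db and 0.46 (95% interval -0.31 to 1.23, adjusted p = 0.556, limma) in STZ-HFD. Its count is uncertain. An antisense gene, *Gm45507*, covers 22.3% of its exon bases, and the median Salmon total was 113% of the gene count, while it was 22.97% to 39.98% for the tested genes *Hif1a*, *Egln1*, *Egln3*, *Adm* and *Car9*. From Salmon totals the log2 fold change in db/db was 0.49, the opposite sign.

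*Ndrg1* (ENSMUSG00000005125, chr15:66929318-66969640, reverse strand), a stress-induced gene that is also needed in the myelinating Schwann cells of nerves, was at 149, 231 and 148 CPM in db/+ and at 111, 114 and 133 CPM in db/db. All db/db libraries were below all db/+ libraries. It was at 127, 118, 289 and 212 CPM in Con+Veh and at 138, 286, 128 and 113 CPM in STZ-HFD. The means of Con+Veh and STZ-HFD, 187 ± 80.5 (SD, n = 4) and 166 ± 80.4 (SD, n = 4) CPM, differed by less than the SD. Its log2 fold change was -0.56 (SE 0.33, adjusted p = 0.346, limma) in db/db and -0.74 (SE 0.27, unadjusted p = 0.0142, adjusted p = 0.148, limma) in STZ-HFD. The value in STZ-HFD depended on the library weights and on single libraries. Con+Veh replicate 3, the highest Con+Veh library, had the highest weight of the 14. The value was -0.20 in voom without weights and -0.33 (adjusted p = 0.842, limma) without Con+Veh replicate 3. Without STZ-HFD replicate 2 it was -0.97 (adjusted p = 0.0341, limma), just short of the minimum fold change. *Kdr*, a receptor for VEGF and 1 of the 8 endothelial markers, was at 649 and 582 CPM in Con+Veh replicates 3 and 4, the libraries with high *Ndrg1*, and at 12.1 and 25.4 CPM in replicates 1 and 2. The other 7 markers summed to 221 and 303 CPM against 199 and 204 CPM there. In STZ-HFD *Kdr* was instead highest in replicates 3 and 4 (128 and 219 CPM), where *Ndrg1* was lowest (128 and 113 CPM). *Kdr* was at 57.9 CPM in STZ-HFD replicate 2, where *Ndrg1* was at 286 CPM and the other 7 markers had their highest STZ-HFD sum, 376 CPM. The part of *Kdr* or of the other markers in the level of *Ndrg1* was not tested.

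*Car9* (ENSMUSG00000028463, chr4:43506966-43513729, forward strand) encodes a carbonic anhydrase at the cell surface that is among the most strictly HIF-dependent genes. It was at 1.01, 6.24 and 4.74 CPM in db/+ and at 2.27, 2.47 and 5.12 CPM in db/db. It was at 0.543, 5.90, 2.77 and 1.41 CPM in Con+Veh and at 2.06, 1.17, 2.02 and 4.28 CPM in STZ-HFD. No comparison separated the groups, and the highest Con+Veh library was 10.9 times the lowest. The fitted log2 fold change was -0.11 (95% interval -1.30 to 1.07, adjusted p = 0.931, limma) in db/db and 0.11 (95% interval -1.40 to 1.62, adjusted p = 0.961, limma) in STZ-HFD. *Car9* had 20 to 359 counts per library, and both intervals include a 2-fold rise and a 2-fold fall.

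*Ankrd37* (ENSMUSG00000050914, chr8:45996902-46005707, reverse strand), an ankyrin-repeat gene induced by HIF-1, was near the limit of detection. It had 3, 25 and 27 counts in db/+ and 24, 27 and 27 counts in db/db, or 0.0615, 0.435 and 0.420 CPM and 0.378, 0.388 and 0.424 CPM. It had 11, 34, 16 and 18 counts in Con+Veh and 24, 5, 8 and 9 counts in STZ-HFD, or 0.299, 0.706, 0.752 and 0.978 CPM and 0.987, 0.172, 0.248 and 0.268 CPM. Of the STZ-HFD libraries 3 were below every Con+Veh library and the remaining one was above them all. *Lrp2bp*, on the opposite strand, shares 22.7% of its exon bases, and it is not stated whether counting used the strand, so some of these reads may belong there.

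*Egln1*, *Egln3*, *Bnip3* and *Car9* followed each other from mouse to mouse. In Con+Veh all 4 were highest in replicate 2 and lowest in replicate 1, in STZ-HFD all 4 were highest in replicate 4, and in db/db all 4 were highest in replicate 3. In db/+ the order differed, with *Egln1* highest in replicate 3 and the others in replicate 2. *Bnip3* was lowest (7.29 CPM) in db/+ replicate 3, where *Egln1* was highest (50.2 CPM). These tops were not particular to the 4 genes. In db/db replicate 3 was also highest for *Hif1a*, *Epas1*, *Vegfa*, *Ndrg1* and *Ankrd37*. Con+Veh replicate 2 was also highest for *Hif1a* and *Adm*, and STZ-HFD replicate 4 for *Adm*. Over the 14 libraries, log2 CPM of *Egln1* and *Car9* had a Pearson r of 0.889 and that of *Egln3* and *Bnip3* one of 0.873, and the other 4 pairs had r from 0.519 to 0.650. *Vegfa* had r from -0.326 to 0.167 to the 4 genes over the 14 libraries, although in db/db it too was highest in replicate 3. *Hif1a* had r of 0.481 to *Egln1* and 0.440 to *Car9*, close to the lowest values within the 4, and 0.223 and -0.0016 to *Egln3* and *Bnip3*. *Hif1a* and *Epas1*, both outside the 4, had r of 0.497, also close to the lowest of 0.519. Libraries of a group share depth and handling, and these correlations are a description. The libraries at the top in the STZ-HFD cohort are those whose names share an ending. The summed notochord and nucleus pulposus markers were also highest there, at 5738 CPM in Con+Veh replicate 2 (the others had 2001 to 3925 CPM) and 7786 CPM in STZ-HFD replicate 4 (the others had 3546 to 6034 CPM). *Car3*, which muscle and fat also express, made up 69.1% to 93.6% of this sum in every library. Without *Car3* the sum was 1296 CPM in Con+Veh replicate 2 (the others had 169 to 576 CPM), and in STZ-HFD it was 750 CPM in replicate 4, close to the 741 CPM of replicate 1. In db/+ it was then lowest in replicate 1 (114 CPM), where *Egln1*, *Egln3* and *Car9* were lowest too. In db/db it was 278, 168 and 296 CPM in replicates 1 to 3, and with *Car3* it was highest in replicate 1 (1280 CPM), where *Egln1* and *Car9* were lowest. Ribosomal RNA shares were the highest of the 14 in Con+Veh replicate 2 (60.2%) and STZ-HFD replicate 4 (58.3%). In db/db and db/+ the share was highest in replicate 1 (35.5% and 39.7%), where none of the 4 genes was highest. The part of these markers or of the ribosomal RNA share in the shared movement was not tested.

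**Figure D4:**
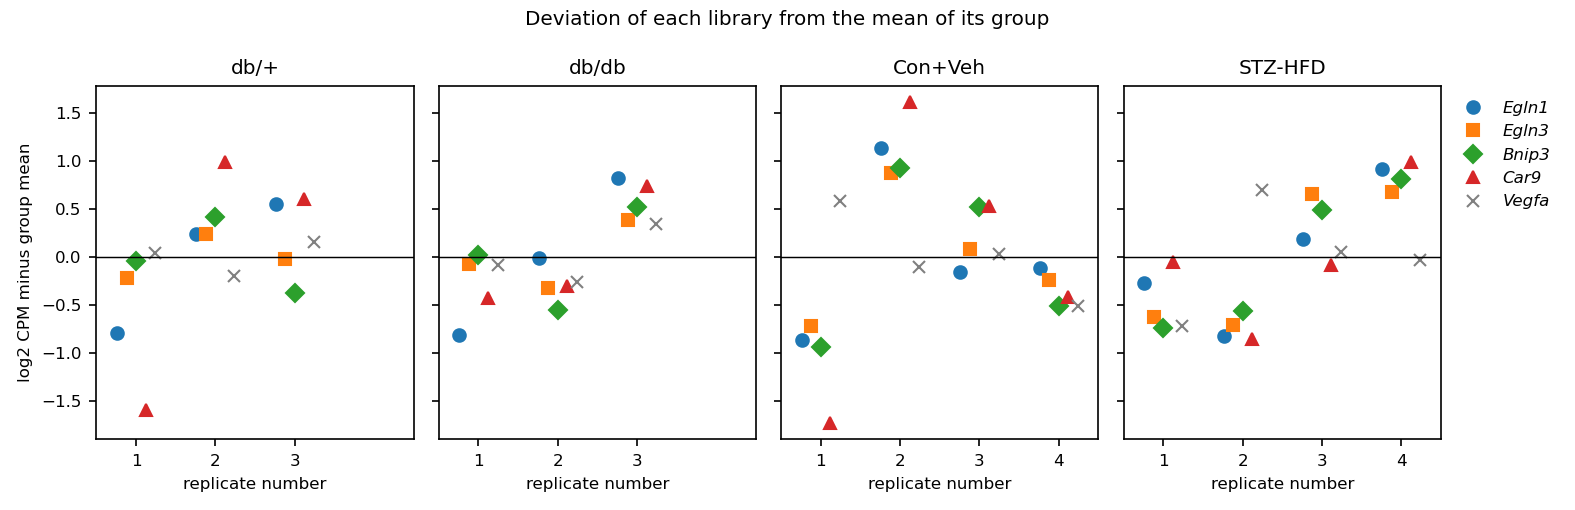
Deviation of log2 CPM (prior count 2) of *Egln1*, *Egln3*, *Bnip3* and *Car9*, with *Vegfa* in grey for comparison, from the mean of its group in each library, by group and replicate number. The 4 coloured genes are all above 0 in Con+Veh replicate 2, STZ-HFD replicate 4, db/db replicate 3 and db/+ replicate 2 and all below 0 in Con+Veh replicates 1 and 4, STZ-HFD replicates 1 and 2, db/db replicate 2 and db/+ replicate 1.

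The genes most like each member, by Pearson r of log2 CPM over the 14 libraries among all genes tested, are given as a description with no test. *Hif1a* was most like *Snhg18* (r = 0.974) and *Dnajc25* (0.967), *Epas1* like *Irf2bp1* (0.917) and *Sun2* (0.909), and *Vegfa* like *B3galnt2* (0.910) and *Inpp5e* (0.895). *Egln1* was most like *Ranbp9* (0.913) and *Arih1* (0.901), *Egln3* like *Reep1* (0.924) and *Tbx15* (0.901), and *Bnip3* like *Phyh* (0.920) and *Apoo* (0.915). *Adm* was most like *Trim30d* (0.900) and *Zfp97* (0.871), *Ndrg1* like *Kcna1* (0.887) and *Sema3b* (0.886), and *Car9* like *Slc12a2* (0.899) and *Siah2* (0.897). Each is the best of all other genes tested, so a high r is no finding on its own, and cohort differences enter all of them.

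A wider list of 72 other genes of the pathway, grouped by role, was read in the same fit, and 71 of them were tested (*Epo*, the erythropoietin gene, was not). The list was chosen with earlier results of these data known. Its shares beside those of all genes are therefore a description. In db/db 3 were called higher and 0 lower, beside 1.23% and 0.432% of all genes, with a median log2 fold change of -0.10. In STZ-HFD 3 were called higher and 2 lower, beside 1.3% and 1.31% of all genes, with a median of -0.07. The counts depended on the libraries. With edgeR's quasi-likelihood test they were 0 in both models. That test called 0 of all genes in db/db and 6 higher and 23 lower in STZ-HFD. In limma 22 and 27 of the 71 had an unadjusted p under 0.05, where 21.1% and 17.9% of all genes did. Without db/db replicate 1, db/db replicate 2 or db/+ replicate 3 the db/db count was 1. Without Con+Veh replicate 3, Con+Veh replicate 4 or STZ-HFD replicate 3 the STZ-HFD count was 0, without STZ-HFD replicate 4 it was 1 and without STZ-HFD replicate 1 it was 8. Calls over all genes moved too. In db/db they were 208 higher and 73 lower, and 32 and 5, 56 and 2, and 47 and 22 in the fits named. In STZ-HFD they were 220 and 221. They fell to 3 and 14, 4 and 14, and 3 and 15 without Con+Veh replicate 3, Con+Veh replicate 4 and STZ-HFD replicate 3. Without STZ-HFD replicate 4 they were 64 and 100, and without STZ-HFD replicate 1 they were 311 and 206.

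Among the subunits and oxygen sensors, *Vhl* rose in db/db. *Vhl*, which encodes the part of the ubiquitin ligase that recognises hydroxylated HIF, was at 10.4, 6.63 and 9.26 CPM in db/+ and at 24.9, 24.4 and 21.6 CPM in db/db, without overlap. Its log2 fold change was 1.48 (SE 0.30, adjusted p = 0.0239, limma) in db/db and -0.05 (adjusted p = 0.959, limma) in STZ-HFD. It was not called without db/db replicate 1, 2 or 3 or without db/+ replicate 2 or 3, where its value was 1.27 at the lowest. Of the 13 other alternatives 9 called it, and it was lost with DESeq2, edgeR, unweighted voom and a skeletal muscle score as covariate. In db/db edgeR called 0 of all genes, and unweighted voom 7 higher and 2 lower. For *Vhl* the difference between the models, 1.53, had an adjusted p of 0.0923 in the limma fit. *Egln2*, the third prolyl hydroxylase gene, was at 13.99, 16.3 and 13.1 CPM in db/+ and at 4.55, 6.92 and 10.1 CPM in db/db, and its value of -1.08 did not pass (adjusted p = 0.0515, limma). In STZ-HFD its value was 0.51, and the difference of -1.59 between the models passed (adjusted p = 0.0429, limma), a call that was kept in 4 of the 14 fits without 1 library and in 1 of 11 other alternatives. The other 9 genes of this group did not pass in either model, among them *Hif3a*, which encodes a further HIF alpha subunit, at 1.07 in db/db and 1.23 in STZ-HFD, and *Hif1an*, which encodes the asparagine hydroxylase FIH, at 0.57 and 1.00. In STZ-HFD the value of *Hif1an* fell to 0.38 without STZ-HFD replicate 3, which was at 61.0 CPM while the other STZ-HFD libraries were at 17.6 to 19.2 CPM. In this list 5 of 11 genes were higher and 1 lower without overlap in db/db. These counts were 1 and 4 of the 20 genes of glucose uptake and glycolysis and 3 and 0 of 8 for vessels and blood. They were 0 and 2 of 8 for mitochondria and cell survival, 0 and 0 of 9 for acid balance and matrix, and 4 and 2 of 15 for other hypoxia-induced genes. No test compared the lists. Over all 71 genes 13 were higher and 9 lower without overlap, near the 14.1% and 11.7% of all genes tested.

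Among the genes of vessels and blood, *Tek* and *Edn1* rose in db/db. *Tek*, the angiopoietin receptor of endothelium, was at 10.6, 12.6 and 10.51 CPM in db/+ and at 32.3, 26.9 and 25.7 CPM in db/db. Its log2 fold change was 1.31 (SE 0.20, adjusted p = 0.0115, limma). It was called in all 14 fits without 1 library and in 11 of the 12 other alternatives. The exception was edgeR's quasi-likelihood test, which called 0 of all genes in db/db. In STZ-HFD the value of *Tek* was 0.07. The difference between the models was 1.24 (adjusted p = 0.0300, limma), called in 6 of the 14 fits without 1 library and 4 of 11 other alternatives. *Edn1*, which encodes the vasoconstrictor endothelin-1, was at 4.55, 4.77 and 3.05 CPM in db/+ and at 14.3, 9.32 and 15.7 CPM in db/db (log2 fold change 1.64, SE 0.38, adjusted p = 0.0364, limma). Without any 1 of the 6 db libraries *Edn1* was not called, its value staying between 1.45 and 1.86. It was called in 10 of the 13 other alternatives, and not with edgeR's quasi-likelihood test, voom without quality weights or the GC trend removed. In STZ-HFD *Tfrc*, the transferrin receptor, was at 3.10, 20.5, 8.55 and 6.08 CPM in Con+Veh and at 15.1, 10.6, 26.2 and 20.2 CPM in STZ-HFD (log2 fold change 1.27, adjusted p = 0.0351, limma). It was not called without Con+Veh replicate 3 or 4 or without STZ-HFD replicate 3 or 4, and was called in 3 of 12 other alternatives. Of the marker lists only that of adipocytes had calls in db/db, with 5 of 7 higher, a median log2 fold change of 1.67, and sums of 546 to 1048 CPM against 255 to 537 CPM in db/+. The endothelial sums given beside *Epas1* were also higher in db/db without overlap. The median of that list was only 0.09, and *Egfl7* and *Cldn5* were lower in the mean. The part of either list in the values of *Tek*, *Edn1* and *Vhl* was not tested. In STZ-HFD *Angptl4* had a larger value of 1.32 than *Tfrc* that did not pass (adjusted p = 0.0998, limma).

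Among the 20 genes of glucose uptake and glycolysis, 2 rose in STZ-HFD and none was called in db/db. In STZ-HFD *Hk2*, a hexokinase gene, was at 28.0, 38.6, 62.8 and 36.4 CPM beside 16.2, 28.1, 17.2 and 16.8 CPM in Con+Veh (log2 fold change 1.29, SE 0.24, adjusted p = 0.00969, limma). *Slc16a3*, a lactate exporter gene, was at 25.0, 26.0, 41.7 and 24.4 CPM beside 11.7, 17.4, 12.4 and 16.7 CPM without overlap (log2 fold change 1.11, adjusted p = 0.0443, limma). In db/db none of the 20 was called by limma, and 7 had an unadjusted p under 0.05 (21.1% of all genes did). edgeR's quasi-likelihood test gave 0 as well, but it called 0 of all genes there. *Gapdh* (-1.43) and *Pkm* (-1.31) had the largest values in db/db. That of *Gapdh* was -0.72 without db/+ replicate 2, which was at 4723 CPM beside 1528 and 1131 CPM in the other db/+ libraries, and with the muscle score as covariate the values were -0.32 and -0.45. In STZ-HFD 11 of the 20 had an unadjusted p under 0.05 (17.9% of all genes), and for the difference between the models 13 (17.3% of all genes). The study had already reported *Hk2*, *Tpi1* and *Slc16a3* as raised in these STZ-HFD discs, so the shares are a description of a list chosen with results known. A phosphofructokinase gene in each model, picked here after its values were seen, was lower without overlap and passed the adjusted p but not the minimum fold change, namely *Pfkp* in STZ-HFD (-0.79, adjusted p = 0.0293, limma) and *Pfkl* in db/db (-0.95, adjusted p = 0.0327, limma). In STZ-HFD the largest value in size was that of *Aldoc*, an aldolase gene, at -1.48, which did not pass (adjusted p = 0.174, limma). *Hk2* was not called without Con+Veh replicate 3, Con+Veh replicate 4 or STZ-HFD replicate 3, and was called in 8 of 12 other alternatives. *Slc16a3* was called in 3 of 12 other alternatives and in 6 of the 14 fits without 1 library, and was not called without Con+Veh replicates 2, 3 or 4, STZ-HFD replicates 2, 3 or 4, db/db replicate 1 or db/+ replicate 1. The difference between the models passed for *Hk2* (-1.54, adjusted p = 0.0386, limma) and *Slc16a3* (-2.00, adjusted p = 0.0308, limma), calls kept in 5 and 7 of the 14 fits without 1 library and in 2 and 4 of 11 other alternatives. The median of the 20 genes was -0.31 in db/db and 0.42 in STZ-HFD. Summed skeletal muscle markers were 7503 to 17338 CPM in STZ-HFD and 6247 to 7622 CPM in Con+Veh, and 3 of the 8 markers rose. With their score as a covariate, 0 genes of the wider list were called in STZ-HFD, with values of 0.91 for *Hk2*, 0.47 for *Slc16a3*, 1.11 for *Tfrc*, -1.52 for *Cox4i2* and -1.11 for *Lox*. Over all genes that fit called 14 higher and 68 lower in STZ-HFD, beside 220 and 221 without the covariate, so the loss was not particular to the list.

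In the remaining groups 2 genes fell in STZ-HFD. *Lox*, the collagen cross-linking enzyme, was at 35.2, 37.3, 79.3 and 73.1 CPM in Con+Veh and at 29.1, 48.6, 20.9 and 32.02 CPM in STZ-HFD (log2 fold change -1.27, SE 0.25, adjusted p = 0.0142, limma). It was not called without Con+Veh replicate 3 or 4 or STZ-HFD replicate 3 or 4, and was called in 6 of 13 other alternatives. It was 0.43 in db/db, and the difference of 1.70 passed (adjusted p = 0.0390, limma), a call kept in 4 of the 14 fits without 1 library and 2 of 12 other alternatives. All 9 genes of acid balance and matrix had values below 0 in STZ-HFD, from -1.27 to -0.28, where 47.2% of all genes tested had values above 0, and only *Lox* was called. *Loxl2*, a related enzyme gene, was next at -0.76 (adjusted p = 0.132, limma). In db/db the largest values of this list were those of *Car12*, a carbonic anhydrase gene, at -1.49 (adjusted p = 0.0566, limma), and *Loxl2* at -0.81, and none passed. Of the 8 cartilage and annulus markers 6 fell in STZ-HFD, and they summed to 837 to 1552 CPM there and 1873 to 5516 CPM in Con+Veh, while 3 of 8 osteoblast markers (median -0.99) and 2 of 8 macrophage markers (median -0.998) fell there too. The part of these markers in the list's values was not tested. *Cox4i2*, the hypoxic isoform of a cytochrome oxidase subunit, was at 7.53, 12.9, 17.3 and 31.0 CPM in Con+Veh and at 8.76, 6.22, 6.06 and 9.69 CPM in STZ-HFD (log2 fold change -1.35, adjusted p = 0.0354, limma). *Cox4i2* was not called without Con+Veh replicate 3 or 4 or STZ-HFD replicate 2, 3 or 4, and was called in 3 of 12 other alternatives. The other genes of mitochondria and cell survival, such as *Ndufa4l2* at -1.03 (adjusted p = 0.0999, limma), did not pass. In db/db *Cox4i2* (-0.89) and *Ndufa4l2* (-0.73) had the largest values of that list, and neither passed. None of the 15 other hypoxia-induced genes was called by limma in either model, with 3 and 4 at an unadjusted p under 0.05, beside 21.1% and 17.9% of all genes. *Gbe1* (0.83) and *Jmjd6* (-0.79) had the largest values in db/db and *Vldlr* (0.89) and *Tmem45a* (-0.83) in STZ-HFD.

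**Figure D5:**
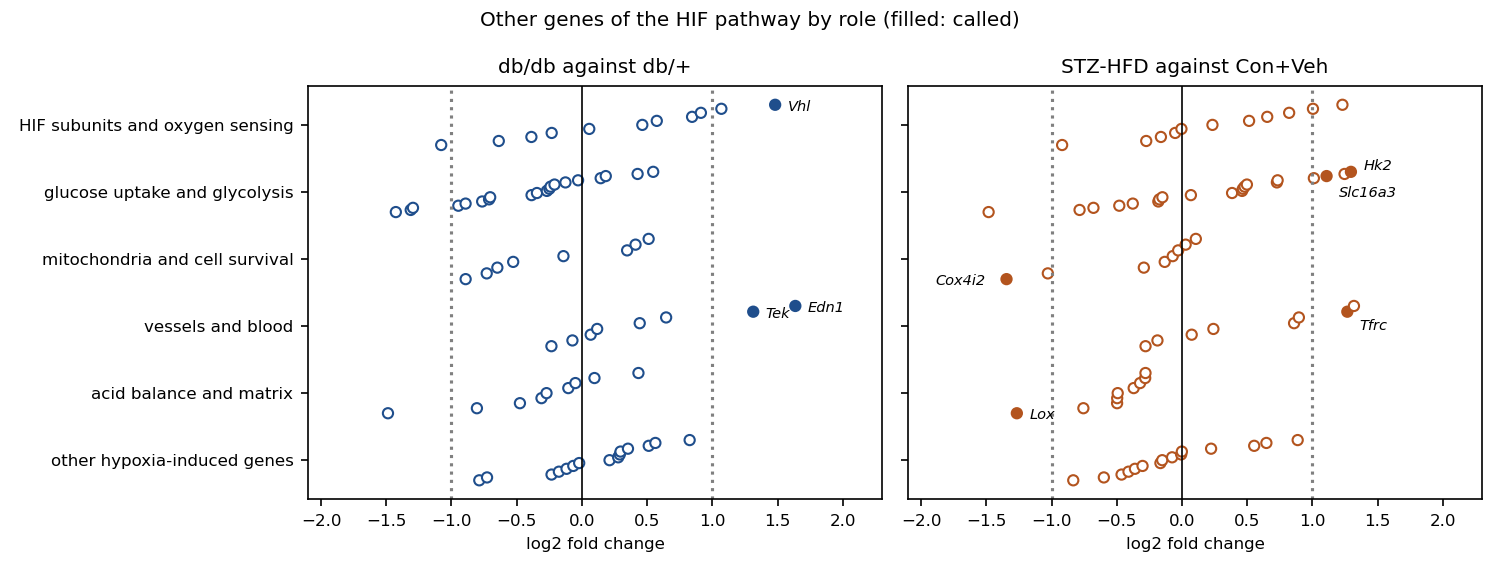
Log2 fold change of the 71 other tested genes of the pathway in db/db against db/+ and STZ-HFD against Con+Veh, by role, with filled and named points for called genes and dotted lines at the minimum of 1. Called genes are *Vhl*, *Tek* and *Edn1* in db/db and *Hk2*, *Slc16a3*, *Tfrc*, *Cox4i2* and *Lox* in STZ-HFD.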

How the data were processed

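RNA of pooled tail discs was sequenced from 14 male mice after amplification of total RNA. The authors aligned reads with STAR and counted them per gene with featureCounts, and the deposited gene counts are raw, on GRCm38 per the labels. The authors also deposited estimated counts per transcript from Salmon. Strand and multi-mapping settings are not given in the sources used here, and the fat content of the high-fat diet differs between the labels and the study's methods. The gene table had 55774 lines, and 287 repeated identifiers left 55487 genes, 55227 of them in the GENCODE M21 annotation used for positions and exon lengths. Of the transcripts in that annotation 23.7% had no line in the transcript table.

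The filter on low counts kept 16915 genes, those over a CPM of 1 in 3 or more libraries. limma 3.58.1 (voomWithQualityWeights, TMM factors from edgeR 4.0.16, R 4.3.3) was fitted to the 4 group means in one fit, and db/db minus db/+, STZ-HFD minus Con+Veh and the difference of these were tested, with Benjamini-Hochberg adjustment over all genes tested. Intervals cover 95%. The voom weights, edgeR normalization and removal of low genes follow the study's methods, and the single fit, the filter's limits and the test of the difference were chosen here. The script was tested on simulated data. As alternatives, DESeq2 1.42.0 and the quasi-likelihood test of edgeR were run, with other filters and scalings, covariates, the replicate block and 14 fits without 1 library each. Named genes were the 10 members, every other pathway gene called in a model, 2 examples with the largest fold change in each role list, and the 2 genes most like each member. *Pfkp* and *Pfkl* fall outside this rule and were added after their values were seen. The members and lists were chosen with earlier results of these data known.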

Additional observations from a re-analysis of the deposited data

Results flagged for a closer look

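Within the groups of 4 libraries, 20 sets of levels were checked by Dixon's gap test at its 95% critical value, which flags about 1 in 20 sets by chance. In STZ-HFD replicate 2, *Ndrg1* stood at 286 CPM while the nearest STZ-HFD library had 138 CPM, a gap of 0.858 of the group's range. In STZ-HFD replicate 1, *Ankrd37* stood at 0.987 CPM while the nearest STZ-HFD library had 0.268 CPM, a gap of 0.883 of the range, on 24 counts.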

How the results depend on the processing

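No member was called under any alternative, leaving out 1 library included, and *Ankrd37* was tested under only 4 of them. The wider list had 3 calls in db/db and 5 in STZ-HFD. These became 0 and 0 with edgeR, 1 and 0 with voom without quality weights, and 5 and 2 without both libraries that share a name ending. In STZ-HFD they became 2 with DESeq2 or filterByExpr, 1 without a filter and 0 with the muscle covariate. Transcript totals also gave 0 there, but tested only 28 of the 71 genes, of the 5 called only *Lox* (-1.06). Leaving out 1 library gave 1 to 5 calls in db/db and 0 to 8 in STZ-HFD. Calls over all genes changed as well. In db/db they were 0 with edgeR and 7 higher and 2 lower in unweighted voom, beside 208 and 73 in the main fit. In STZ-HFD they were 6 and 23 with edgeR and 3 and 16 in unweighted voom, beside 220 and 221 in the main fit. With DESeq2 they were 122 and 150 there, with filterByExpr 103 and 114, without a filter 95 and 35, and with the muscle covariate 14 and 68.

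Values near 0 changed sign. In db/db *Egln3* became 0.020 with edgeR, 0.040 with DESeq2, 0.0030 in voom without weights, 0.015 without a filter, 0.015 without ribosomal RNA genes, 0.028 with the GC trend removed and 0.10 with the muscle covariate. With the GC trend removed *Hif1a* became -0.027 and *Car9* 0.21. Transcript totals gave 0.49 for *Bnip3* and 0.052 for *Car9*, and the muscle covariate gave -0.31 for *Egln1* and 0.058 for *Bnip3*. In STZ-HFD *Egln3*, *Vegfa* and *Car9* became -0.22, -0.13 and -0.17 with edgeR and -0.20, -0.12 and -0.14 with DESeq2. Voom without weights gave -0.24 for *Egln3* and -0.16 for *Vegfa*. Without both libraries that share a name ending *Egln3* was -0.15 and *Car9* -0.091, and the muscle covariate gave -0.28 for *Egln3* and -0.12 for *Bnip3*. The cause was not tested.

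Over the fits without 1 library, db/db values ran from -0.18 to 0.63 for *Egln1*, -0.20 to 0.15 for *Egln3*, -0.51 to 0.033 for *Bnip3* and -0.80 to 0.36 for *Car9*. STZ-HFD values ran from -0.27 to 0.29 for *Egln3*, -0.17 to 0.18 for *Vegfa* and -0.46 to 0.48 for *Car9*. Some uncalled values moved by over 1.5 times without changing sign. For example, in STZ-HFD *Egln1* was 0.0026 and *Bnip3* 0.066 without STZ-HFD replicate 4, *Egln1* was 0.79 without STZ-HFD replicate 2, *Bnip3* was 0.82 without Con+Veh replicate 3, and *Adm* was -0.64 without Con+Veh replicate 4 and -0.26 without Con+Veh replicate 2. In db/db *Ndrg1* was -0.32 without db/+ replicate 2.

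The replicate numbers do not pair the mice, since deviations of same-numbered libraries had correlations of -0.28 to 0.19 in the db cohort and -0.26 to -0.04 in the other. With the replicate block the wider list had 10 calls in db/db and 0 in STZ-HFD. Over all 16915 genes that fit called 796 higher and 688 lower in db/db and 2 and 4 in STZ-HFD. These counts therefore do not set the list apart. *Egln3* (0.072) and *Car9* (0.12) in db/db and *Vegfa* (-0.0086) in STZ-HFD changed sign. In the same fit *Vegfa* (-0.85, adjusted p = 0.00751, limma) and *Adm* (0.83, adjusted p = 0.0250, limma) in db/db stayed under the minimum fold change.

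With 3 or 4 mice a group, the intervals of *Egln1*, *Bnip3* and *Car9* include no change and sizeable change alike, and *Ankrd37*, *Car9* and *Adm* rest on few counts.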
